A study of Lathyrus oleraceus with 9 samples.

Results

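In pea seeds aged by heat and moisture, 145 of 5246 probes had a small ratio to non-aged seeds after 8 d of ageing and a larger one after 15 d. A probe was taken into this group, called late-responding by its rule, when its mean log2 ratio (aged over non-aged) was under 0.5 in size at 8 d, at least 0.6 in size at 15 d, and at least 0.3 apart between 15 d and 8 d. Of 1582 probes that were at least 0.6 in size at 15 d, 272 were under 0.5 in size at 8 d, and 149 of these were also at least 0.3 apart. The probes of glyceraldehyde-3-phosphate dehydrogenase B and Bax inhibitor 1 were left out by identifier, and 2 probes named hypothetical were left out by name. Of the 145 probes, 87 were higher and 58 were lower in aged seeds at 15 d. With the arrays scaled to equal median absolute deviation, 59 of them still met the rule, 37 higher and 22 lower. A product name was at hand for 6 of them, and the other 139 are given by identifier. The values at 8 d and 15 d chose the probes, so both are given as a description with no test. Only the ratios at 12 d were tested, with a spread pooled over the arrays of all times.

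The seeds were of Pisum sativum cv Alaska Early, and the aged ones were held at 50°C and 60% relative humidity at a moisture content of 12% for 8, 12 or 15 d. Non-aged seeds of the same cultivar were the reference on every array. Each ageing time had 3 arrays, each from a replicate of 20 whole seeds that the deposited design describes as grown and harvested independently, so that a value is an average over pooled seeds of 1 cultivar. RNA of aged seeds was hybridised against that of non-aged seeds on the same array, the dyes of replicate 2 being swapped, and each probe gave 1 log2 ratio per array. A log2 ratio of 1 is a doubling and one of -1 a halving relative to non-aged seeds, and ratios are relative to the bulk of the probes, since normalization set the centre of each array near 0. Whether the ageing times shared their non-aged RNA is not given in the sources used here, so comparisons between them may share it. In RNA from whole seeds, fewer cells of a type and less transcript per cell cannot be told apart. The paper reports that seed RNA was already partly degraded early in ageing, and names such loss as a source of apparent falls in expression. Whether RNA degradation contributed to the ratios given here was not tested.

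A dry seed holds mRNA that was laid down while it matured on the mother plant, and part of this store is translated when the seed takes up water. In pea, the seed store itself consists largely of globulins, legumin with vicilin and convicilin, whose transcripts are abundant in maturing cotyledons. The named late-responding transcripts belonged to 3 areas: seed storage (convicilin), protein synthesis (the ribosomal proteins L32-1 and L37-2 and the initiation factor eIF5A-5), and metabolism and plastid function (a class 1 aldehyde dehydrogenase and ycf3). Convicilin, the aldehyde dehydrogenase and eIF5A-5 were lower in aged seeds, and L32-1, L37-2 and ycf3 were higher. The product names came from the list of ageing-responsive genes published with these arrays, which was chosen on them, and an oligonucleotide probe can also bind close relatives of the gene it is named for.

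Across the 145 probes, the size of the response passed through an intermediate level at 12 d. The 87 probes that were higher at 15 d had a median log2 ratio of 0.35 at 8 d (range 0.05 to 0.50), 0.56 at 12 d (0.12 to 1.21) and 0.76 at 15 d (0.60 to 1.12). The 58 probes that were lower had a median of -0.36 at 8 d (range -0.49 to 0.02), -0.51 at 12 d (-0.94 to -0.08) and -0.77 at 15 d (-1.37 to -0.61). Few of these probes were flat at 8 d. At 8 d, 31 of the 87 and 21 of the 58 were already at least 0.4 in size, and 2 of each direction were under 0.1 in size. Most of the responses thus began at 8 d as a small ratio of the sign seen at 15 d.

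**Figure D1:**
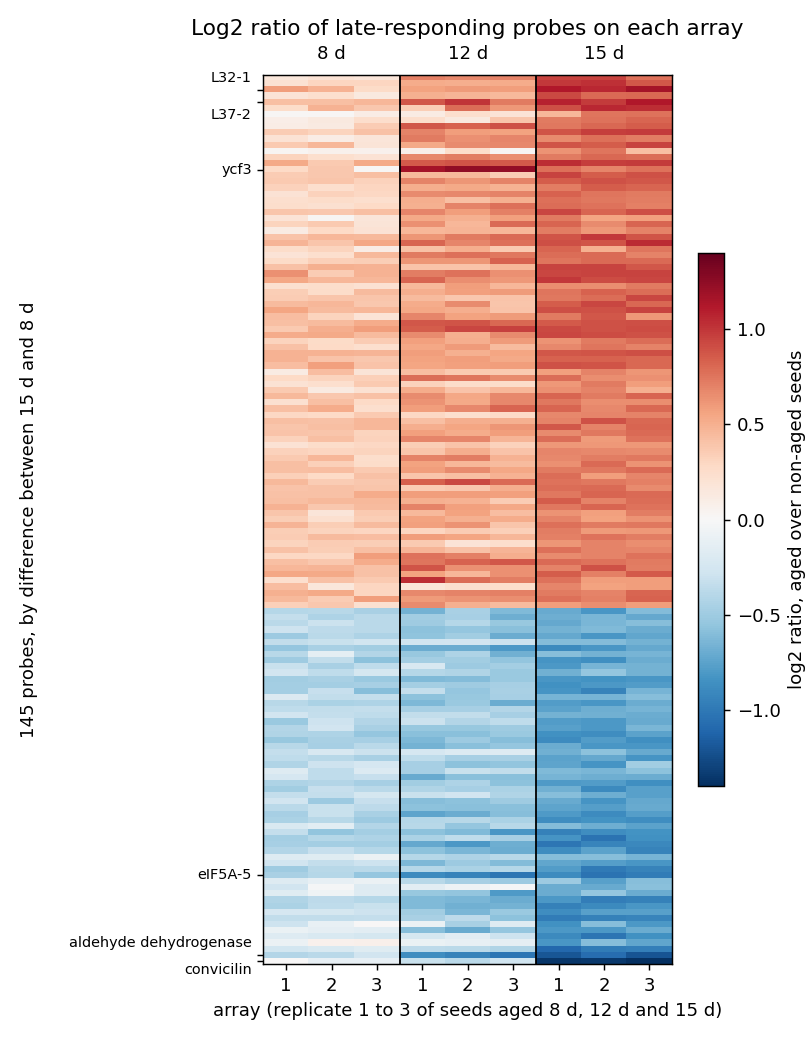
Log2 ratio (aged over non-aged) of the 145 late-responding probes (rows, ordered by the difference between 15 d and 8 d) on each of the 9 arrays (columns, 3 replicates at 8 d, 12 d and 15 d), with red for higher and blue for lower in aged seeds. Most of the 87 red and 58 blue rows deepen over the times, with an intermediate shade at 12 d, and 7 red rows are paler at 15 d than at 12 d.

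The difference between 15 d and 8 d had a median of 0.40 (range 0.30 to 0.71) in the probes that were higher, and of -0.38 (-1.30 to -0.30) in those that were lower. Over all probes, mean ratios at 15 d followed those at 8 d with a slope of 1.17 on the arrays as deposited. This slope depends on the spread of the arrays, which was not equal between times. With arrays scaled to equal median absolute deviation, sizes at 8 d rose and those at 15 d fell. Convicilin, for example, moved from -0.073 to -0.078 at 8 d and from -1.37 to -1.26 at 15 d. The slope was not taken on scaled arrays, so a general growth of ratios is not established. Measured from this line, 53 of the 145 probes were under 0.3 away at 15 d and 20 were at least 0.5 away. The plot of 15 d against 8 d shows where the late-responding probes stood among all others. The replicates were tight for these probes, with a median SD within times of 0.0652 on the log2 scale (range 0.0236 to 0.157), against 0.0739 over all probes.

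**Figure D2:**
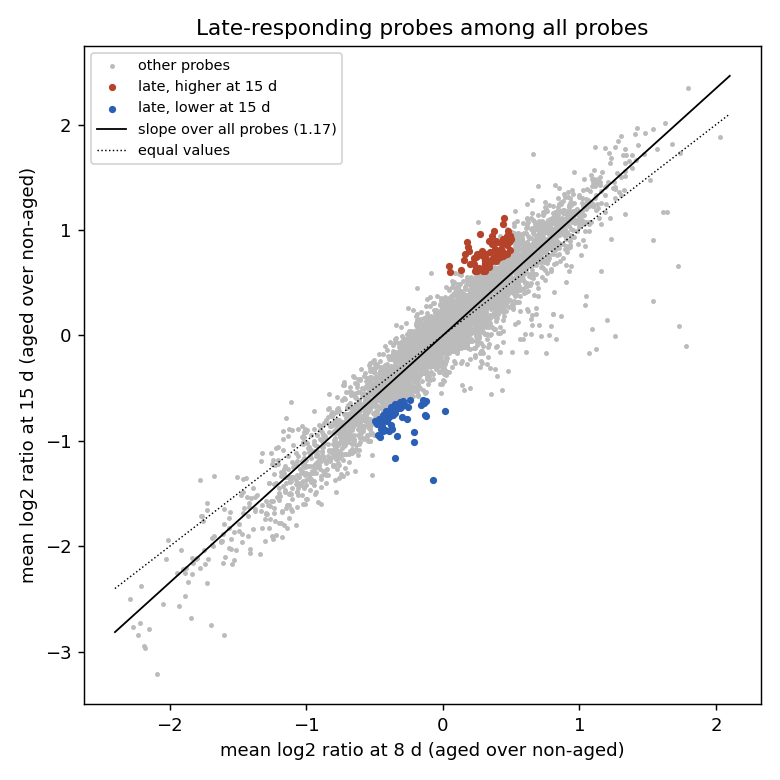
Mean log2 ratio (aged over non-aged) at 15 d (vertical) against that at 8 d (horizontal), with 1 point for each of 5246 probes, the late-responding ones in red (87, higher at 15 d) and blue (58, lower). The solid line is the slope of 1.17 over all probes and the dotted line marks equal values, and the coloured probes lie off the solid line toward larger ratios at 15 d.

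Convicilin had the largest negative difference between 15 d and 8 d in the group. The convicilin probe (PSOLI00637) read 0.00, -0.11 and -0.11 on the arrays at 8 d, -0.31, -0.38 and -0.28 at 12 d, and -1.36, -1.35 and -1.41 at 15 d. The 3 times did not overlap, and the 15 d arrays stood far below the others. At 15 d the mean of -1.37 ± 0.03 (SD, n = 3) meant 2.59-fold less signal in aged than in non-aged seeds. At 12 d the ratio was -0.32 ± 0.04 (SE), which passed the limma test with an adjusted p of 1e-06. Only 19.2% of the difference between 15 d and 8 d was present at 12 d, and the step of -1.05 between 15 d and 12 d was the second largest fall of that step among 5246 probes.

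The largest fall of that step was in the probe of sucrose-binding protein (PSOLI00636), a vicilin-like protein of legume seeds that was not late-responding. It averaged -1.60, -1.62 and -2.84 at 8, 12 and 15 d. In both probes the larger step thus came after 12 d and exceeded 1 log2 unit, but it began at different ratios. Of 13 probes named for seed storage and seed proteins, convicilin was the 1 that met the rule. At 12 d, 6 of the 13 were called higher and 7 were called lower at an adjusted p under 0.05, with 37.1% of all probes called higher and 34.1% called lower. Since product names were at hand only for probes that had been chosen on these arrays for their change, every probe of this and the lists that follow was called at 12 d, and their counts are no independent evidence of a direction.

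In the aldehyde dehydrogenase probe most of the difference was already present at 12 d. This enzyme oxidises aldehydes to carboxylic acids. Its probe (PSOLI04356) read -0.41, -0.38 and -0.27 at 8 d, -0.87, -0.94 and -1.01 at 12 d, and -1.20, -1.07 and -1.21 at 15 d. The arrays of the 3 times did not overlap, and the larger step lay between 8 d and 12 d. At 12 d the ratio of -0.94 ± 0.04 (SE) had an adjusted p of 6.9e-12 in limma, and 72.7% of the difference between 15 d and 8 d was present. Of 5 probes named for aldehyde and alcohol dehydrogenases, 2 were called higher and 3 were called lower at 12 d (37.1% and 34.1% of all probes), and 1 was late-responding. The probe of antiquitin (PSOLI04873), another aldehyde dehydrogenase, averaged -0.71, -0.94 and -1.13 at 8 d, 12 d and 15 d, so that both had about the same ratio at 12 d and 15 d and differed at 8 d.

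The translation factor eIF5A-5 had about the same ratio at 12 d and 15 d on the arrays as deposited. With arrays scaled to equal median absolute deviation, it was -0.97 at 12 d and -0.88 at 15 d. eIF5A is an initiation factor of eukaryotes that binds the ribosome and also acts in elongation. Its probe (PSOLI04630) read -0.45, -0.40 and -0.54 at 8 d, -0.88, -0.93 and -1.02 at 12 d, and -0.88, -1.03 and -0.98 at 15 d. The arrays of 12 d and 15 d overlapped, and both stood below those of 8 d. The ratio at 12 d was -0.94 ± 0.04 (SE, adjusted p = 6.2e-12 in limma), and 96.0% of the difference between 15 d and 8 d was present. Of 21 probes named for initiation and elongation factors, 7 were called higher and 14 were called lower at 12 d (37.1% and 34.1% of all probes), and eIF5A-5 was the 1 late-responding probe.

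Both late-responding ribosomal proteins, which belong to the large subunit of the cytosolic ribosome, were higher in aged seeds, and they differed in timing. The L37-2 probe (PSOLI03397) read 0.42, 0.42 and 0.47 at 8 d, 0.87, 1.00 and 0.73 at 12 d, and 1.08, 0.98 and 1.12 at 15 d. The 8 d arrays were the lowest, and those of 12 d and 15 d overlapped. Its ratio at 12 d was 0.87 ± 0.05 (SE, adjusted p = 5.2e-11 in limma), with 69.0% of the difference present.

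The L32-1 probe (PSOLI04324) read 0.58, 0.49 and 0.27 at 8 d, 0.56, 0.60 and 0.58 at 12 d, and 1.12, 1.06 and 1.17 at 15 d. Here the arrays of 8 d and 12 d overlapped, and those of 15 d stood above both. Its ratio at 12 d was 0.58 ± 0.05 (SE, adjusted p = 1.5e-08 in limma), with 19.9% of the difference present, and its mean at 15 d was 2.17-fold higher in aged than in non-aged seeds. Its place in the group rests on replicate 3, the lowest of its 8 d arrays: without that replicate the mean at 8 d passed the limit of 0.5.

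The other probes named for ribosomal proteins, all chosen for their change, were at least 0.5 in size at 8 d already. Of 63 such probes, 15 were called higher and 48 were called lower at 12 d (37.1% and 34.1% of all probes), with L32-1 and L37-2 among the 15. The median of the 63 was -0.81, -0.92 and -1.15 at 8, 12 and 15 d, against 0.01 over all probes at 12 d. Unnamed probes may hold further ribosomal proteins. L29-1 (PSOLI04069) was close to the limit, with 0.54, 0.81 and 1.09 at 8, 12 and 15 d. L30 (PSOLI03814) was close to it on the other side of 0, with -0.52, -0.74 and -1.14 at 8, 12 and 15 d.

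On the arrays as deposited, the ycf3 probe was the 1 named late-responding probe whose ratio at 12 d exceeded that at 15 d in size. With arrays scaled to equal median absolute deviation, eIF5A-5 did so too. The ycf3 protein helps to assemble photosystem I, and its gene lies in the chloroplast genome. The probe (PSOLI00436) read 0.28, 0.38 and 0.02 at 8 d, 1.16, 1.24 and 1.23 at 12 d, and 0.77, 0.68 and 0.76 at 15 d. The 3 times did not overlap, with 12 d the highest. Its ratio at 12 d was 1.21 ± 0.05 (SE, adjusted p = 4.4e-12 in limma), and the change present at 12 d was 193% of that between 15 d and 8 d. The published list that gave the name took probes at least 1 in size at 1 or more times. The mean of this probe reached that only at 12 d. Its 12 d test and peak are thus no independent evidence. Replicate 3 at 8 d was the lowest array, and the spread at 8 d (SD 0.19) was wider than at 12 d (0.04) or 15 d (0.05).

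A second probe named ycf3 (PSOLI01196) was already high at 8 d, with means of 1.22, 1.33 and 1.11 at 8, 12 and 15 d. The 2 probes of this name thus differed by about 1 log2 unit at 8 d and by less at 12 d and 15 d. Of 20 probes named for chloroplast and photosystem proteins, 8 were called higher and 12 were called lower at 12 d (37.1% and 34.1% of all probes), and 1 was late-responding.

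No probe of 7 other lists was late-responding. Of 10 probes matched by transcription factor or zinc finger words, 2 were called higher and 8 lower at 12 d. The match also took in zinc finger proteins not named as transcription factors, such as the ARF GAP-like ZIGA2 (PSOLI00549), which was among the 8. Of 10 histones, 3 were called higher and 7 lower, and over all probes 37.1% were called higher and 34.1% lower. Both mitochondrial processing peptidase probes were called higher, and all 7 probes matched by heat shock or chaperone words were called lower. Chaperones with other names were missed by this match. The paper reports that such a chaperone, the binding protein BiP, was induced during ageing. Of 22 ubiquitin and proteasome probes, 8 were called higher and 14 lower, and the single probes of the seed coat list and of the dehydrin and late embryogenesis abundant list were both called lower. Several stood just outside the 8 d limit: the transcription factor NAC29 (PSOLI00791) averaged -0.52, -0.82 and -1.32 at 8 d, 12 d and 15 d, the mitochondrial processing peptidase beta subunit (PSOLI01338) 0.53, 0.69 and 1.18, and histone H2A.3 (PSOLI02502) -0.55, -0.73 and -0.997.

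**Figure D3:**
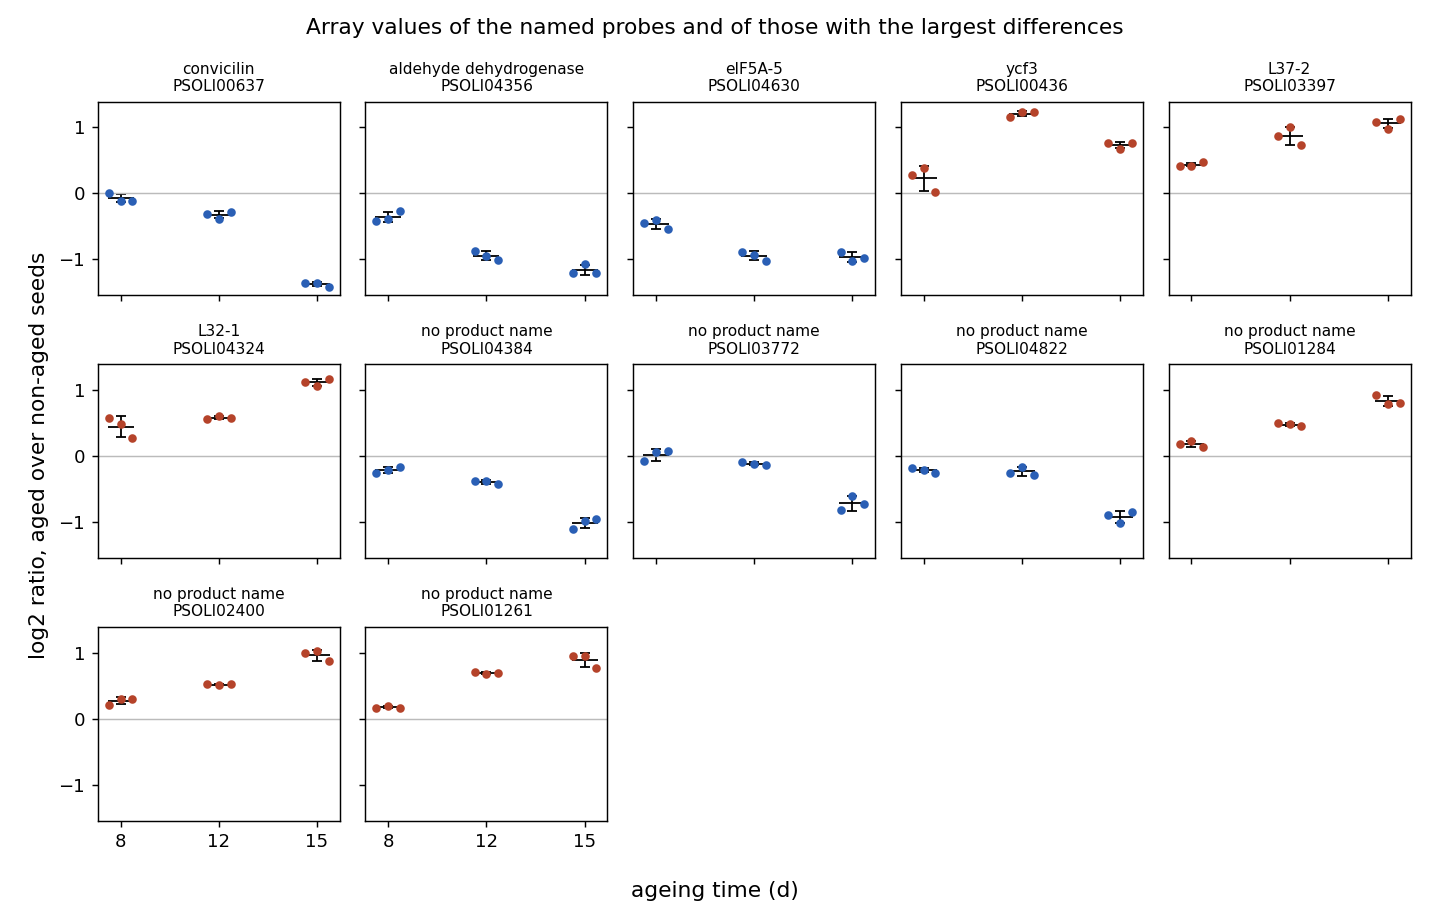
Log2 ratio, aged over non-aged (vertical), by ageing time in d (horizontal) for the 6 late-responding probes with a product name and 6 others among the largest differences between 15 d and 8 d or at least 1 in size at 15 d, with 1 point per array, horizontal bars for means and error bars for SD (n = 3). Convicilin is at -0.32 at 12 d and at -1.37 at 15 d, eIF5A-5 is as low at 12 d as at 15 d, and ycf3 is highest at 12 d.

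Among the probes without a product name, 3 of the largest negative differences lay mostly between 12 d and 15 d. PSOLI04384 read -0.26, -0.21 and -0.17 at 8 d, -0.37, -0.38 and -0.42 at 12 d, and -1.10, -0.98 and -0.96 at 15 d. PSOLI03772 read -0.08, 0.06 and 0.07 at 8 d, -0.09, -0.12 and -0.13 at 12 d, and -0.82, -0.60 and -0.73 at 15 d. PSOLI04822 read -0.18, -0.21 and -0.25 at 8 d, -0.25, -0.16 and -0.29 at 12 d, and -0.89, -1.02 and -0.85 at 15 d. In all 3 the 15 d arrays stood apart from the rest, and in PSOLI04822 the arrays of 8 d and 12 d overlapped. PSOLI04384 was 2.02-fold lower in aged seeds at 15 d and was the 1 unnamed probe at least 1 in size there. The ratios at 12 d passed the limma test with adjusted p of 1.2e-07 for PSOLI04384, 9e-05 for PSOLI04822 and 0.033 for PSOLI03772, the last at a ratio of only -0.11 ± 0.04 (SE). The call of PSOLI03772 was lost with a dye term (adjusted p = 0.054 in limma) and without replicate 2 (0.083) or replicate 3 (0.14).

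The largest positive differences without a product name were more even over the times. PSOLI01261 read 0.16, 0.20 and 0.17 at 8 d, 0.71, 0.67 and 0.70 at 12 d, and 0.95, 0.95 and 0.77 at 15 d. PSOLI02400 read 0.21, 0.30 and 0.30 at 8 d, 0.52, 0.51 and 0.52 at 12 d, and 0.99, 1.02 and 0.87 at 15 d. PSOLI01284 read 0.19, 0.23 and 0.14 at 8 d, 0.50, 0.48 and 0.45 at 12 d, and 0.92, 0.79 and 0.80 at 15 d. None of the 3 probes had overlapping arrays between times, and each was higher at every later time. PSOLI01261 had the larger step before 12 d, whereas PSOLI02400 and PSOLI01284 had it after. At 12 d the adjusted p in limma was 1.4e-10 for PSOLI01261, 3.8e-09 for PSOLI02400 and 8.5e-09 for PSOLI01284.

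The probes were then split by whether the change was present at 12 d, taken as a mean of at least 0.6 in size with the sign of 15 d. The change was present in 51 probes, 38 higher and 13 lower, and not present in 94, 49 higher and 45 lower. With the arrays scaled to equal median absolute deviation, the change was present in 28 of the 59 probes that met the rule. Of the named probes, the aldehyde dehydrogenase, eIF5A-5, L37-2 and ycf3 were in the first set and convicilin and L32-1 in the second. The 51 had median sizes of 0.39, 0.68 and 0.78 at 8 d, 12 d and 15 d, and the 94 had 0.34, 0.48 and 0.74. The steps were also taken in size, without regard to direction, so that a step back counted like a step forward. Their median was 0.30 to 12 d and 0.13 to 15 d in the 51 probes, and 0.13 to 12 d and 0.26 to 15 d in the 94. The split did not mark a gap in the data, since 38 of the 94 probes lay between 0.5 and 0.6 in size at 12 d.

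The share of the difference between 15 d and 8 d that was present at 12 d varied widely. Its median was 50.9% in the probes that were higher and 42.2% in those that were lower. It was under 25% in 20 of the 87 and 22 of the 58 probes, and at least 75% in 22 of the 87 and 4 of the 58. On the arrays as deposited, the ratio at 12 d exceeded that at 15 d in size in 7 probes, all of them higher in aged seeds. They were ycf3, PSOLI05219, PSOLI02933, PSOLI00368, PSOLI02452, PSOLI01199 and PSOLI04025. Of these, ycf3 and PSOLI05219 had the largest excess, and PSOLI05219 read 1.03, 0.78 and 0.72 at 12 d and 0.76, 0.59 and 0.59 at 15 d, which overlapped. At the other end, 4 of the 87 and 8 of the 58 moved slightly against their later direction between 8 d and 12 d.

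**Figure D4:**
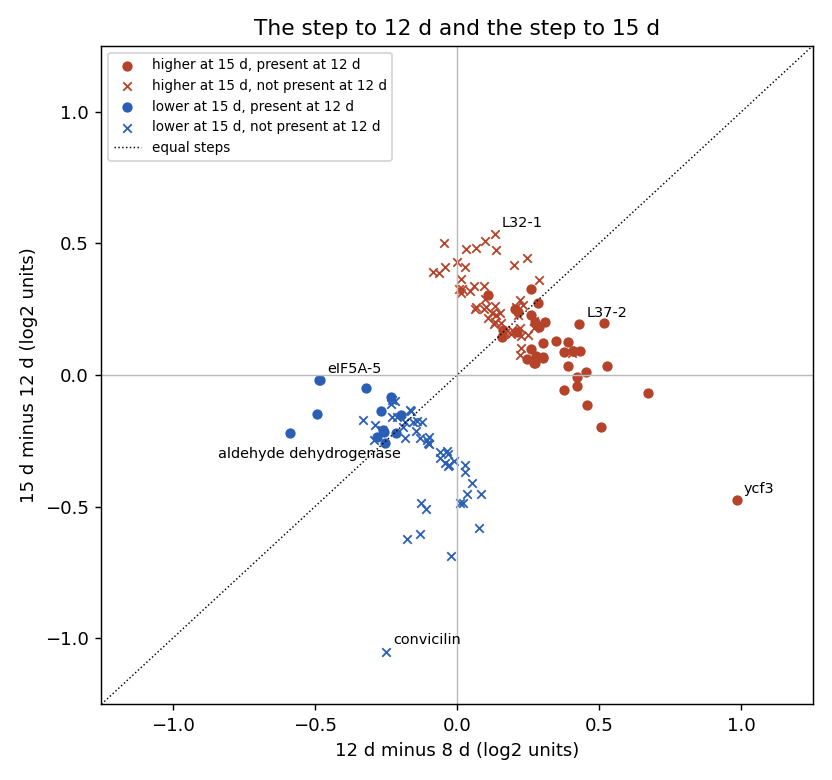
Difference between 15 d and 12 d (vertical, log2 units) against that between 12 d and 8 d (horizontal, log2 units) for each of the 145 late-responding probes, in red where higher and in blue where lower in aged seeds at 15 d, with filled circles for the 51 probes present at 12 d and crosses for the 94 that were not. The dotted line marks equal steps, convicilin lies lowest with a last step of -1.05, and ycf3 lies farthest right with a first step of 0.98.

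The arrays of 15 d and 8 d were apart, with no overlap between their 3 values, in all 145 probes and in 47.0% of all probes, a comparison that the rule itself used. The arrays of 15 d and 12 d were apart in 109 of the 145 probes, against 37.0% of all probes. Those of 12 d and 8 d were apart in 93 of the 145, against 33.7% of all probes. Both of the last counts rest in part on the arrays that chose the probes and are given as a description.

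On the 12 d arrays, which the rule did not use, 143 of the 145 probes differed from non-aged seeds at an adjusted p under 0.05 in limma, with 71.3% of all probes called by the same test. In the probes that were higher at 15 d, 86 of 87 were called higher at 12 d, against 37.1% of all probes. In those that were lower at 15 d, 57 of 58 were called lower at 12 d, against 34.1% of all probes. Such calls were likely from the rule, since most of these probes had the same sign at both times that chose them. The percentages over all probes are thus no fair comparator, and the counts are given as a description. The spread in limma was also pooled over all times, so the arrays that chose the probes entered the test. The median size at 12 d was 0.55 in the 145 probes and 0.26 over all probes, with a median SE of 0.0411. With a ratio of at least 1 in size required as well, ycf3 was the 1 probe called, against 7.89% of all probes.

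Of the 143 called probes, 92 were under the limit of 0.6 by which the change was taken as present, so that a ratio could pass the test at 12 d and still be counted as not present. The 2 probes that were not called were PSOLI03431 and PSOLI04580. PSOLI03431 read 0.07, 0.25 and 0.03 at 12 d, a ratio of 0.12 with an adjusted p of 0.067 in limma. PSOLI04580 read -0.15, -0.07 and -0.02 at 12 d, a ratio of -0.08 with an adjusted p of 0.14 in limma. Both passed the rule on the strength of their 15 d arrays, which read 0.63, 0.75 and 0.42 in PSOLI03431 and -0.69, -0.71 and -0.58 in PSOLI04580.

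Close to the thresholds, probes on either side were alike. The largest 8 d mean inside the limit was 0.497 in size (PSOLI04869), and 2 otherwise fitting probes lay outside at 0.50. The smallest 15 d mean inside was 0.60 (PSOLI03431), and 2 probes lay outside at 0.597. The smallest difference inside was 0.30, in PSOLI02854, PSOLI00218, PSOLI01399 and PSOLI01715, and 1 probe lay outside at 0.297. Of the 4 probes left out by name or identifier, glyceraldehyde-3-phosphate dehydrogenase B, a chloroplast enzyme of carbon fixation (PSOLI00908), averaged 0.47, 0.46 and 1.01 at 8 d, 12 d and 15 d. Bax inhibitor 1, a membrane protein of the endoplasmic reticulum that restrains cell death (PSOLI01240), averaged 0.46, 1.01 and 0.77, so that it peaked at 12 d as ycf3 did. The hypothetical probes averaged 0.26, 0.77 and 1.08 (PSOLI03179) and 0.42, 0.96 and 0.95 (PSOLI03429).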

How the data were processed

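Seed RNA (1 µg of total RNA per sample) was measured on 9 two-colour arrays of 70-mer oligonucleotide probes, each printed in 3 spots. The authors subtracted background, normalized each array by print-tip loess, scaled the arrays to one another in limma, and deposited log2 ratios of aged over non-aged seeds. The deposited arrays still differed in median absolute deviation, from 0.385 to 0.460 when multiplied by the usual constant that matches it to the SD of a normal distribution. Scanner intensities were not analysed here, so a dim spot cannot be told from a bright one. No values were missing.

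Means and SDs were taken over the 3 arrays of a time with Python 3.11.15, pandas 2.3.3 and numpy 2.4.6. All 9 arrays entered 1 fit in limma 3.58.1 under R 4.3.3, with a coefficient for each time, 6 residual degrees of freedom and a prior of 9.165 degrees of freedom (SD 0.0748). The 12 d coefficient was tested against 0 on both sides with Benjamini-Hochberg adjustment over 5246 probes. The script was tested on simulated data. Replicate numbers were not taken to pair the samples, since deviations of samples with the same number correlated at -0.012 to 0.056. The number of arrays limits the precision.

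All members with a product name were named, and, by identifier, the 5 largest positive and the 5 largest negative differences between 15 d and 8 d, those at least 1 in size at 15 d and those nearest to a threshold. The probes that peaked at 12 d, those not called at 12 d and the non-members compared were chosen after their values were seen. Lists (ribosomal proteins, translation factors, seed storage and seed proteins, chloroplast and photosystem proteins, aldehyde and alcohol dehydrogenases, transcription factors, histones, mitochondrial processing peptidases, heat shock proteins and chaperones, ubiquitin and proteasome, seed coat, dehydrins and late embryogenesis abundant proteins) were made from words in the product names and were not tested as sets. The members and lists were chosen with earlier results of these data known. Alternatives were another scaling and centring, the median of arrays, a dye term, a replicate block, each replicate left out, and other limits. Genome positions and probe sequences are not given here.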

Additional observations from a re-analysis of the deposited data

How the results depend on the processing

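The number of late-responding probes (145) moved with the scaling of the arrays and with the limits. It was 59 with arrays scaled to equal median absolute deviation, all within the 145, 56 with a difference of at least 0.45, 92 with the difference taken from the slope over all probes, and 5 with at least 1 in size at 15 d. It ranged over 145 to 161 with 1 replicate left out, and 93 of the 145 probes met the rule whichever replicate was left out. Of the 12 named probes in the plot of array values, L32-1 left the rule without replicate 3 and 7 others were under 1 in size at 15 d, and all 12 met it under every other setting. The number present at 12 d (51) was 28 with equal deviation and 89 with a limit of 0.5, and ranged over 50 to 56 with 1 replicate left out. The number called at 12 d (143) was 1 with at least 1 in size required and ranged over 141 to 143 with 1 replicate left out. With the replicate number as a block it was 144, and the block changed no call among the 12 probes. Set against the arrays of another time, deviations from the means correlated best with those of the same number in 13 of 18 cases, all weakly, a hint of pairing from the data and not from the design. The median at 12 d of the probes higher at 15 d (0.56) was 0.58 with equal deviation, 0.55 with centring and 0.57 with the median of arrays, and 0.57 to 0.575 with 1 replicate left out. That of the lower ones (-0.51) was -0.495 with the median of arrays and -0.515 to -0.4825 with 1 replicate left out. Of 96 values of single probes at 12 d under 8 alternatives, 93 kept their call and 0 reversed. The 3 others were of PSOLI03772, with adjusted p of 0.054 under a dye term, 0.083 without replicate 2 and 0.14 without replicate 3. With 3 arrays a time and no intensities, faint probes cannot be set apart.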
